A study of Homo sapiens with 6 samples.

Results

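Mitophagy removes damaged or surplus mitochondria by enclosing them in autophagosomes. Receptors that sit on mitochondria bind the ATG8 proteins of the autophagosome membrane directly. In the parallel PINK1 pathway the kinase PINK1 accumulates on depolarised mitochondria, ubiquitin chains are built on the outer membrane, and soluble adaptors bridge these chains to ATG8 proteins. BNIP3 and BNIP3L are textbook targets of the hypoxia-inducible factors, and FUNDC1 acts in hypoxia mainly through changes in its phosphorylation.

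The transcripts of 10 such genes were examined: BNIP3, BNIP3L and FUNDC1 as hypoxia-linked receptors, BCL2L13, FKBP8 and PHB2 as receptors not known for induction by hypoxia, and PINK1, OPTN, CALCOCO2 and SQSTM1 as the kinase and adaptors of the PINK1 pathway. They were taken by symbol from 60569 gene names in the deposited table. All 10 had 1 row each and passed the filter on low values, set at 1 FPKM or above in 3 or more of the 6 libraries, as did 13185 genes in all. The symbols were chosen by role, with the FPKM differences of this same comparison already known. Their differences are therefore given as a description with their errors and without p-values.

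The libraries came from MDA-MB-453, an established line from a human breast cancer of luminal apocrine type. There were 3 libraries of cells transfected with a ZNF207 overexpression construct and 3 libraries of cells transfected with control vector. The design text calls the libraries of a group independent biological replicates. Both groups were transfected, and no untransfected cells are among these samples. The sources used here do not give the share of cells that took up the construct, the promoter that drives it or the time after transfection. Values are FPKM, fragments scaled by transcript length and library size, so they can be set side by side between genes. Differences are on the log2(FPKM + 1) scale, overexpression minus control.

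ZNF207, a zinc finger partner of the spindle checkpoint protein BUB3, stood at 885, 786 and 750.0 FPKM in the overexpression libraries, against 69.2, 67.0 and 63.7 FPKM in the controls. Pearson correlations between libraries, across genes, ran from 0.985 to 0.991. Of 10 luminal apocrine markers 9 were tested, among them KRT8, KRT19, GATA3, FOXA1 and ERBB2. Their summed level was 6752 to 6807 FPKM in overexpression libraries and 7080 to 7422 FPKM in controls, so this sum also differed between the groups without overlap. KRT8 had 2835 ± 27.1 FPKM in overexpression libraries and 3013 ± 45.8 FPKM in controls (limma adjusted p = 0.559), and KRT19 had 1571 ± 48.5 FPKM in overexpression libraries and 1833 ± 112 FPKM in controls (limma adjusted p = 0.196; SD, n = 3 each). TFF3 had the largest difference of the 9, at -0.61 (SE 0.11, limma adjusted p = 0.0618). It had 20.3 ± 2.06 FPKM in overexpression libraries and 31.7 ± 4.61 FPKM in controls (SD, n = 3 each). Of the 9, 5 had a lower and 4 a higher log2 level in overexpression libraries. PIP, the marker not tested, had at most 0.205 FPKM in any library. The part of the luminal apocrine markers in the results below was not tested. The 5 immune and 4 endothelial markers summed to at most 1.66 FPKM and 0.577 FPKM in any library. The 5 fibroblast markers summed to 8.23 to 10.5 FPKM in overexpression libraries and 9.47 to 11.7 FPKM in controls, nearly all of it COL1A1, and 4 of the 5 stayed under 1 FPKM in every library. The 5 basal markers summed to 5.88 to 7.24 FPKM in overexpression libraries and 7.04 to 8.00 FPKM in controls.

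Because BNIP3 is known as a target of hypoxia-inducible factors, the promoter bases of members were searched for the core of the hypoxia response element, ACGTG or GCGTG on either strand. RefSeq promoter windows on GRCh38.p14 (250 bases before and 50 after a start) were held for 7 of the 10 members, in 13 windows. They were not held for BNIP3L, FKBP8 and PINK1. The stretches below are the bases upstream of every annotated start in the window, 5′ to 3′ on the strand of the gene, with ACGTG and its reverse complement in capitals. BNIP3 (chr10:131982014-131982173, minus strand) is shown as the hypoxia-linked receptor with the largest difference, FUNDC1 (chrX:44543002-44543109, minus strand) as the hypoxia-linked receptor whose groups overlapped, and CALCOCO2 (chr17:48830785-48830987, plus strand) as the other member with a match to ACGTG.
BNIP3: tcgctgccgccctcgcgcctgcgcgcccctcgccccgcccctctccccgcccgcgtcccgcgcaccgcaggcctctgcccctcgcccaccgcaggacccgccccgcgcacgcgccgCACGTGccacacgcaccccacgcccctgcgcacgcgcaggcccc
FUNDC1: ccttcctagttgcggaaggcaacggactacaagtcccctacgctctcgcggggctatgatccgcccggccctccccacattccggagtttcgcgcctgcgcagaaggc
CALCOCO2: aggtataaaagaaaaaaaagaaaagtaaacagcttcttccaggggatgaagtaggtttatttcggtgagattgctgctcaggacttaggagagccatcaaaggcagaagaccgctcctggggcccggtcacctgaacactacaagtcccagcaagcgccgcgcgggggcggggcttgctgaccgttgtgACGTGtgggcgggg

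The capitals in the BNIP3 stretch form CACGTG, a palindrome that holds ACGTG on both strands, 44 bases upstream of the first annotated start. The same window had 4 matches to GCGTG, 0 of which overlapped it. In CALCOCO2 a single ACGTG lay 14 bases upstream of the first annotated start. Only these 2 members had a window with ACGTG, and 1 further window, of BCL2L13, had GCGTG. Over 35116 promoter windows of the same length, 21.4% held ACGTG, 36.5% held GCGTG, 48.4% held either and 7.26% held CACGTG. The BNIP3 window was 80.7% G and C, against a median of 58.7% over all windows. These matches describe the sequence only.

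Of the 10 genes, BNIP3 and BNIP3L stood furthest from the controls: their means in overexpression libraries were 0.698 and 0.744 times the control means. FKBP8 and PHB2 were lower by smaller amounts, at 0.862 and 0.921 times the control means. The means of the other 6, FUNDC1 and BCL2L13 among the receptors and all 4 genes of the PINK1 pathway, lay between 0.947 and 1.13 times the control means, and their groups overlapped. In 4 of the 10 genes all 3 overexpression libraries lay below all 3 controls. Among all tested genes this held for 10.4%, and the opposite order, seen in none of the 10, held for 7.61%. In the fit of the whole table (limma, Benjamini-Hochberg adjusted p under 0.05) 1 of the 10, BNIP3L, was past the threshold, beside 0.212% of all tested genes in either direction, 0.159% lower and 0.0531% higher. Without any 1 of the 6 libraries 0 of the 10 were past it. Nothing is read from that count, since the choice of genes was made with this comparison known.

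**Figure D1:**
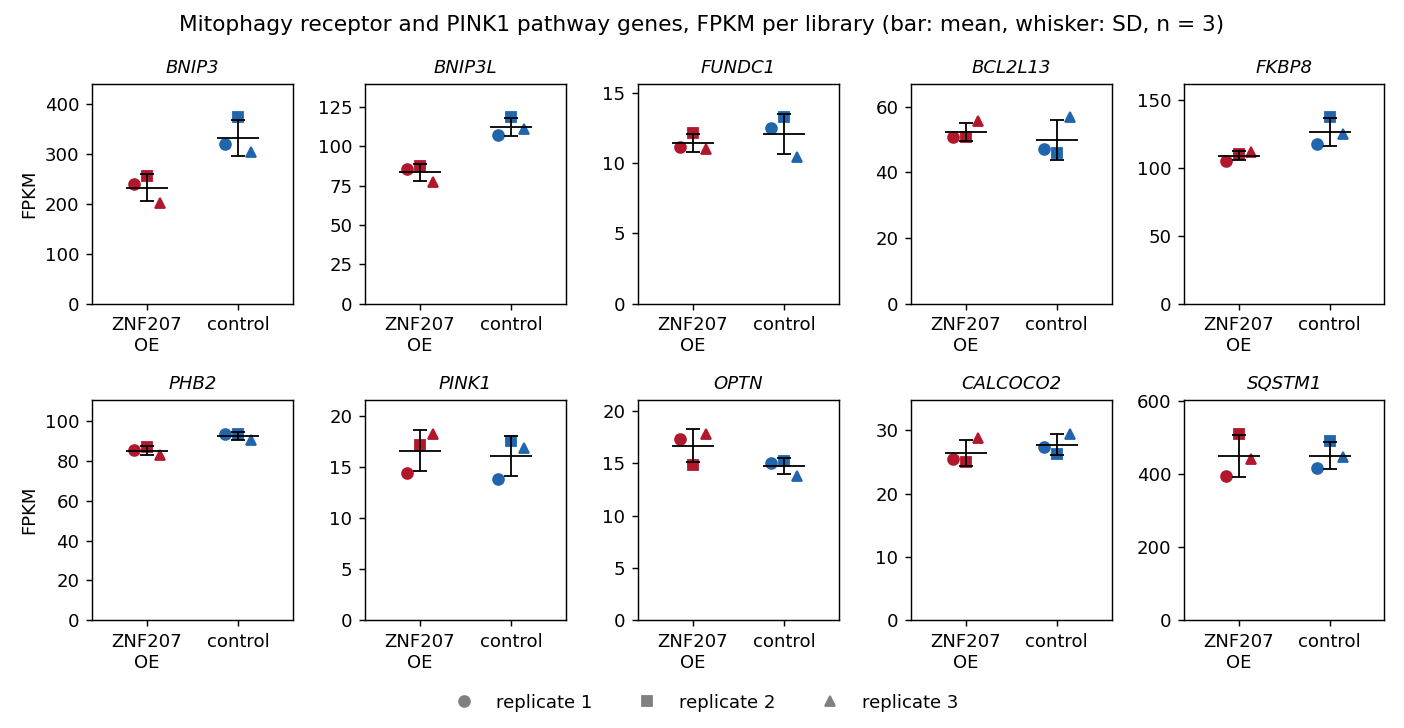
FPKM of the 10 genes in each library (y axes, separate scales starting at 0), overexpression libraries left of controls. Points are libraries, bars the mean and whiskers the SD (n = 3 per group). BNIP3, BNIP3L, FKBP8 and PHB2 are the genes with no overlap between the groups.

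BNIP3 (chromosome 10, 131966455 to 131982013, minus strand, GENCODE v29 on GRCh38) encodes an outer-membrane receptor of the BCL2 family that binds ATG8 proteins. It had 239, 255 and 202 FPKM in overexpression libraries, against 319, 373 and 303 FPKM in controls. The lowest control was above the highest overexpression library, and overexpression replicate 3 was the lowest of the 6. The means were 232 ± 27.3 FPKM in overexpression libraries and 332 ± 36.3 FPKM in controls (SD, n = 3 each), with a log2 difference of -0.52 (SE 0.10). Of tested genes, 1.02% had a lower difference, a rank that is description only, since BNIP3 was chosen with this comparison known. In bulk RNA, fewer cells with the transcript and less transcript per cell cannot be told apart. The table lists 39 rows named as BNIP3 pseudogenes, and the sources used here do not say how reads shared with them were assigned. These rows summed to 0.835 to 1.76 FPKM in overexpression libraries and 1.36 to 1.76 FPKM in controls, at most 0.739% of BNIP3 in any library.

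BNIP3L, also called NIX, is the close relative of BNIP3 known for clearing mitochondria from maturing red blood cells (chromosome 8, 26382898 to 26505636, plus strand). It had 85.8, 87.5 and 77.0 FPKM in overexpression libraries, against 107, 119 and 111 FPKM in controls. The groups did not overlap, and the lowest and highest libraries were those of BNIP3, overexpression replicate 3 and control replicate 2. The means were 83.5 ± 5.62 FPKM in overexpression libraries and 112 ± 5.82 FPKM in controls (SD, n = 3 each), a log2 difference of -0.42 (SE 0.07). Of tested genes, 1.92% had a lower difference, which is likewise description only. The row of BNIP3L shares its listed locus with 6 other rows, of which DPYSL2 was the highest. DPYSL2 had 9.91 ± 0.907 FPKM in overexpression libraries and 10.3 ± 0.460 FPKM in controls (SD, n = 3 each; limma adjusted p = 0.867). The ratio of BNIP3 to BNIP3L was 2.78, 2.91 and 2.62 in overexpression libraries and 2.98, 3.14 and 2.73 in controls, so the 2 ranges overlapped.

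FUNDC1 (chromosome X, 44523639 to 44543001, minus strand), a receptor in the outer membrane, was the lowest of the 10 in mean level in both groups. It had 11.2, 12.2 and 11.0 FPKM in overexpression libraries, against 12.5, 13.3 and 10.5 FPKM in controls. The lowest of the 6 was a control, replicate 3, and the groups overlapped. Its log2 difference was -0.07 (SE 0.10), and ran from -0.16 without control replicate 3 to 0.00 without control replicate 2. Its paralog FUNDC2 had 36.9 ± 1.33 FPKM in overexpression libraries and 39.0 ± 3.99 FPKM in controls (SD, n = 3 each; limma adjusted p = 0.764). The log2 differences of the 3 hypoxia-linked receptors ran from -0.52 to -0.07, with a median of -0.42, beside a median of -0.01 over all tested genes.

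**Figure D2:**
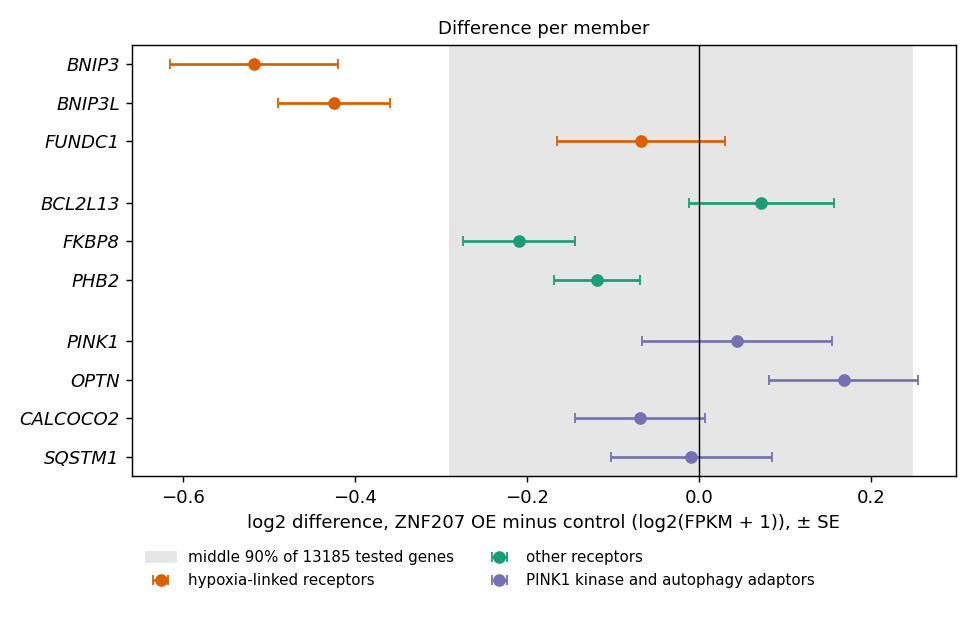
Log2 difference of each gene, overexpression minus control (x axis, log2(FPKM + 1)), with its SE from limma. The grey band is the middle 90% of all 13185 tested genes, from -0.29 to 0.25; BNIP3 and BNIP3L are the 2 genes to its left.

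Among the receptors not known for induction by hypoxia, FKBP8, an outer-membrane immunophilin (chromosome 19, 18531751 to 18544077, minus strand), had 105, 110.0 and 112 FPKM in overexpression libraries, against 117, 137 and 125 FPKM in controls. The groups were separated by a small gap, between the highest overexpression library and control replicate 1. The log2 difference was -0.21 (SE 0.06). PHB2 (chromosome 12, 6965327 to 6970825, minus strand), an inner-membrane scaffold that becomes a receptor once the outer membrane ruptures, had 85.6, 87.3 and 83.1 FPKM in overexpression libraries, against 93.8, 93.8 and 90.4 FPKM in controls. It varied least among replicates of the 10, with coefficients of variation of 2.45% in overexpression libraries and 2.10% in controls, and its log2 difference was -0.12 (SE 0.05). PHB, the partner with which PHB2 forms a ring complex, stood at 120.0 ± 0.283 FPKM in overexpression libraries and 121 ± 4.28 FPKM in controls (SD, n = 3 each), a log2 difference of -0.01 (limma adjusted p = 0.939).

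BCL2L13, a BCL2-family receptor known as the mammalian counterpart of yeast Atg32 (chromosome 22, 17628855 to 17730855, plus strand), had 50.7, 51.0 and 55.6 FPKM in overexpression libraries, against 47.1, 45.9 and 56.9 FPKM in controls. The groups overlapped through control replicate 3, the highest of the 6, and the log2 difference was 0.07 (SE 0.08). The median over these 3 receptors was -0.12. Summed over all 6 receptors, levels were 577, 603 and 540.2 FPKM in overexpression libraries and 697, 782 and 697 FPKM in controls. BNIP3 and BNIP3L together made up 56.2%, 56.8% and 51.6% of that sum in overexpression libraries, against 61.1%, 62.8% and 59.5% in controls. They were the larger part of the receptor transcripts in every library, with a lower share in each overexpression library than in any control. The sum and the share both contain BNIP3 and BNIP3L, so they are no separate result from the lower levels of these genes.

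The 4 genes of the PINK1 pathway had overlapping groups throughout. PINK1 (chromosome 1, 20633455 to 20651511, plus strand), the kinase that phosphorylates ubiquitin on damaged mitochondria, had 14.4, 17.2 and 18.3 FPKM in overexpression libraries, against 13.9, 17.6 and 16.8 FPKM in controls. Replicate 1 was the lowest library in each group, and the groups overlapped (log2 difference 0.04, SE 0.11). The row of PINK1 shares its listed locus with its antisense gene PINK1-AS, at 1.42 ± 0.283 FPKM in overexpression libraries and 1.17 ± 0.0274 FPKM in controls, and with DDOST, at 139 ± 3.81 FPKM in overexpression libraries and 138 ± 3.43 FPKM in controls (SD, n = 3 each). The listed locus runs on to 20661544, beyond the end of PINK1, so sharing it does not by itself show overlap with PINK1. The strand of the libraries is not given, so reads from bases that PINK1 shares with a gene on the other strand cannot be told apart.

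OPTN, an adaptor whose binding to ubiquitin chains and ATG8 proteins is enhanced by the kinase TBK1 (chromosome 10, 13099449 to 13138308, plus strand), had 17.4, 14.9 and 17.8 FPKM in overexpression libraries, against 15.0, 15.3 and 13.8 FPKM in controls. Overexpression replicates 1 and 3 lay above all controls, and replicate 2 lay below the highest 2 controls (log2 difference 0.17, SE 0.09). This was the highest difference of the 10. CALCOCO2, also called NDP52 (chromosome 17, 48830988 to 48866522, plus strand), had 25.5, 25.0 and 28.7 FPKM in overexpression libraries, against 27.5, 26.2 and 29.5 FPKM in controls, with overlap (log2 difference -0.07, SE 0.08).

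SQSTM1, or p62, a ubiquitin-binding adaptor that is itself degraded by autophagy (chromosome 5, 179806398 to 179838078, plus strand), was the highest of the 10 in mean level in both groups. It had 396, 511 and 443 FPKM in overexpression libraries, against 416, 490.1 and 448 FPKM in controls. Both the lowest and the highest library were overexpression libraries, and the log2 difference was -0.01 (SE 0.09). The row of SQSTM1 shares its listed locus with 7 other rows, of which MGAT4B was the highest. MGAT4B had 107 ± 3.68 FPKM in overexpression libraries and 117 ± 3.56 FPKM in controls (SD, n = 3 each; limma adjusted p = 0.402). The median over the 4 pathway genes was 0.02, and it ran from -0.06 without control replicate 1 to 0.11 without overexpression replicate 1, so its sign rests on single libraries. The ratio of BNIP3 to SQSTM1 within a library was 0.603, 0.499 and 0.456 in overexpression libraries and 0.767, 0.760 and 0.678 in controls. Like BNIP3 alone, it did not overlap between the groups, so it is no separate result.

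By mean level the order in overexpression libraries was SQSTM1, BNIP3, FKBP8, PHB2, BNIP3L, BCL2L13, CALCOCO2, OPTN, PINK1 and FUNDC1. The ranges of PHB2 and BNIP3L, and of OPTN and PINK1, overlapped, and those of the other neighbours did not. In controls BNIP3L stood before PHB2 and PINK1 before OPTN, and the overlapping neighbours were FKBP8 with BNIP3L and PINK1 with OPTN. SQSTM1 and BNIP3 were above 98.7% and 98.3% of tested genes in their control means, and FUNDC1 above 45.2%.

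**Figure D3:**
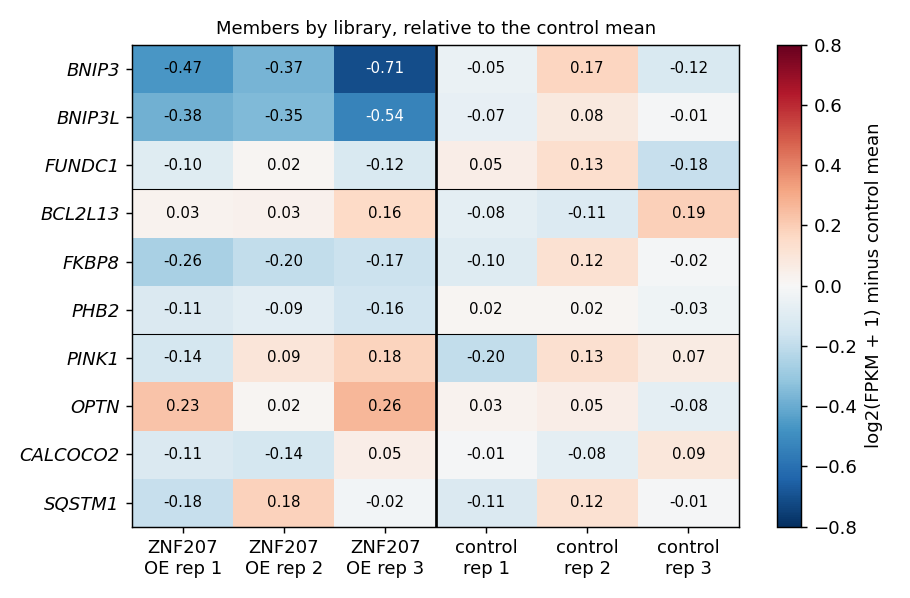
Each gene in each library as log2(FPKM + 1) minus the control mean of that gene (colour and printed value). BNIP3 and BNIP3L are below the control mean in all 3 overexpression libraries, by 0.37 to 0.71 and 0.35 to 0.54, while FUNDC1, PINK1, CALCOCO2 and SQSTM1 have overexpression libraries on both sides of it.

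Libraries also differed within a group. Overexpression replicate 3 was the lowest overexpression library for BNIP3, BNIP3L, FUNDC1 and PHB2, and the highest for BCL2L13, FKBP8, PINK1, OPTN and CALCOCO2. Without it the log2 differences were -0.42 for BNIP3 and -0.37 for BNIP3L. Among 11738 genes other than BNIP3 with a mean of 2 FPKM or more, BNIP3L ranked 33rd in likeness to the BNIP3 profile, by a root mean square difference of 0.09 between centred log2 values over the 6 libraries. FKBP8 ranked 685th and the 7 other members ranked between 1326th and 10125th. The centred profiles keep the difference between the groups, so these ranks are not separate from the log2 differences above. The 5 nearest genes were RASD1, SH3D21, BHLHE40, WSB1 and STC2, at 0.04 to 0.05, and their own log2 differences ran from -0.54 to -0.43.

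Other genes of these pathways were read from lists written by role. As background for the counts below, 670 of all 13185 tested genes were higher and 927 lower with a raw p under 0.05 (limma). Among 21 other tested genes of the PINK1 pathway, 0 passed the test (limma; 1 higher and 1 lower with a raw p under 0.05), with a median log2 difference of -0.01. The outer-membrane channel VDAC1 had 229 ± 5.23 FPKM in overexpression libraries and 258 ± 3.09 FPKM in controls (log2 difference -0.17, SE 0.05, limma adjusted p = 0.175). The adaptor NBR1 had 49.9 ± 3.96 FPKM in overexpression libraries and 44.1 ± 1.70 FPKM in controls (0.17, SE 0.07, limma adjusted p = 0.355). USP8, a deubiquitinase, had 305 ± 14.1 FPKM in overexpression libraries and 282 ± 5.83 FPKM in controls (limma adjusted p = 0.43; SD, n = 3 each).

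Of 19 partners and regulators of the receptors 0 passed (limma; 1 higher and 2 lower with a raw p under 0.05), with a median of -0.01. The autophagy kinase ULK1, which phosphorylates FUNDC1, had 40.6 ± 1.78 FPKM in overexpression libraries and 45.5 ± 1.82 FPKM in controls (-0.16, SE 0.06, limma adjusted p = 0.321). SPATA33, a mitophagy adaptor known from mouse germ cells, had 8.25 ± 0.518 FPKM in overexpression libraries and 10.3 ± 0.694 FPKM in controls (-0.28, SE 0.09, limma adjusted p = 0.238). RHEB, a small GTPase that activates mTORC1, had 114 ± 7.57 FPKM in overexpression libraries and 115 ± 6.00 FPKM in controls (limma adjusted p = 0.95; SD, n = 3 each).

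The autophagosome machinery showed the same lack of calls. Of 19 initiation genes 0 passed (limma; 1 higher and 3 lower with a raw p under 0.05; median 0.05). Their log2 differences ran from -0.26 to 0.26. WIPI1, which binds phosphoinositides on the forming membrane, had 26.4 ± 1.51 FPKM in overexpression libraries and 22.0 ± 1.65 FPKM in controls (0.26, SE 0.08, limma adjusted p = 0.216), while its relative WDR45B had 80.1 ± 1.55 FPKM in overexpression libraries and 90.5 ± 1.61 FPKM in controls (-0.17, SE 0.05, limma adjusted p = 0.196). VMP1, a lipid scramblase, had 276 ± 6.40 FPKM in overexpression libraries and 303 ± 9.78 FPKM in controls (limma adjusted p = 0.32; SD, n = 3 each). Of 15 ATG8 and conjugation genes 0 passed (limma; 0 higher and 2 lower with a raw p under 0.05; median 0.01). Their log2 differences ran from -0.50 to 0.18, and the lowest of them, not named here, did not pass. Of the ATG8 proteins that receptors bind, MAP1LC3B, or LC3B, had 125 ± 9.09 FPKM in overexpression libraries and 126 ± 9.27 FPKM in controls (0.00, SE 0.07, limma adjusted p = 0.987) and GABARAPL2 had 162 ± 7.21 FPKM in overexpression libraries and 164 ± 7.94 FPKM in controls (limma adjusted p = 0.909). The protease ATG4B had 33.8 ± 0.193 FPKM in overexpression libraries and 37.0 ± 0.535 FPKM in controls (limma adjusted p = 0.387), and the conjugating enzyme ATG10 had 10.2 ± 1.19 FPKM in overexpression libraries and 11.9 ± 0.323 FPKM in controls (limma adjusted p = 0.397).

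Downstream, 0 of 20 lysosomal genes passed (limma; 1 higher and 1 lower with a raw p under 0.05; median 0.07). Their log2 differences ran from -0.18 to 0.26. ATP6V1H, a subunit of the proton pump, had 51.6 ± 1.81 FPKM in overexpression libraries and 45.7 ± 2.69 FPKM in controls (0.17, SE 0.06, limma adjusted p = 0.305). GUSB, a lysosomal glucuronidase, had 20.8 ± 0.806 FPKM in overexpression libraries and 23.8 ± 0.835 FPKM in controls (limma adjusted p = 0.303; SD, n = 3 each). PSAP, the saposin precursor, and the protease CTSD, the 2 highest of the list, had limma adjusted p = 0.971 and 0.594. Of 20 nuclear genes for mitochondrial mass and dynamics 0 passed (limma; 2 higher and 1 lower with a raw p under 0.05; median 0.01). The matrix protease LONP1 had 40.5 ± 2.07 FPKM in overexpression libraries and 49.8 ± 3.06 FPKM in controls (-0.29, SE 0.07, limma adjusted p = 0.117), the import channel TIMM23 had 68.7 ± 1.74 FPKM in overexpression libraries and 62.3 ± 1.48 FPKM in controls (0.14, SE 0.05, limma adjusted p = 0.325), the chaperone HSPD1 had 435 ± 5.42 FPKM in overexpression libraries and 434 ± 11.4 FPKM in controls (limma adjusted p = 0.984) and the enzyme MDH2 had 231 ± 14.4 FPKM in overexpression libraries and 215 ± 13.6 FPKM in controls (limma adjusted p = 0.588). Their summed level was 1709 to 1732 FPKM in overexpression libraries and 1668 to 1735 FPKM in controls.

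**Figure D4:**
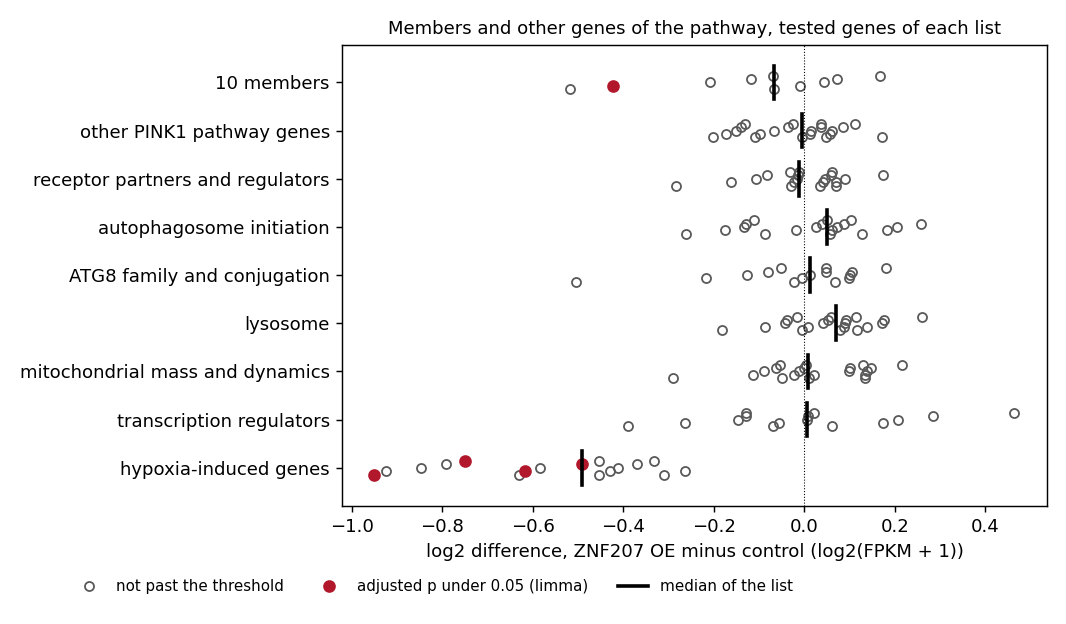
Log2 difference, overexpression minus control (x axis, log2(FPKM + 1)), of every tested gene of each list (rows). Filled points are past the threshold in limma and black bars are medians. The list medians lie between -0.07 and 0.07 except for the hypoxia-induced genes, at -0.49.

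Among 15 regulators of the members' transcription 0 passed (limma; 2 higher and 3 lower with a raw p under 0.05; median 0.01). HIF1A, which encodes the oxygen-labile subunit of the hypoxia-inducible factor, had 75.0, 71.1 and 82.9 FPKM in overexpression libraries, against 55.5, 49.0 and 61.0 FPKM in controls (log2 difference 0.46, SE 0.09, limma adjusted p = 0.0751). All overexpression libraries lay above all controls, opposite to BNIP3 and BNIP3L. EGLN1, the prolyl hydroxylase that marks this subunit for degradation and is itself induced by hypoxia, had 32.0, 31.4 and 27.6 FPKM in overexpression libraries, against 37.4, 45.3 and 37.7 FPKM in controls (-0.39, SE 0.09, limma adjusted p = 0.117). The stress factor ATF4 (-0.06, SE 0.07, limma adjusted p = 0.79) did not pass.

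BNIP3 and BNIP3L can be set beside 17 genes induced by hypoxia (EGLN3 is also among the regulators), a list written with the fall of such genes in these data already known. Of these, 4 fell, 0 rose and 13 did not pass the test (limma; 0 higher and 17 lower with a raw p under 0.05). Over all 13185 tested genes, 670 were higher and 927 lower with a raw p under 0.05. All 17 had overexpression libraries below all controls, beside the 10.4% of all tested genes. Since the choice of genes was made with their fall known, these counts and the p-values below are no test of the list. The median was -0.49, beside -0.52 for BNIP3, -0.42 for BNIP3L and -0.07 for FUNDC1. P4HA1, a collagen prolyl hydroxylase, fell to 118 ± 6.37 FPKM in overexpression libraries, against 167 ± 4.79 FPKM in controls (-0.49, SE 0.06, limma adjusted p = 0.012). LOX (-0.95), PDK1 (-0.62) and NDRG1 (-0.75) fell too, with limma adjusted p = 0.00414, 0.018 and 0.047. DDIT4 and SLC2A1, the 2 highest of the list, had -0.45 (SE 0.10, limma adjusted p = 0.108) and -0.31 (SE 0.07, limma adjusted p = 0.131). The calls of P4HA1, PDK1 and NDRG1 were each lost without control replicate 2 (limma adjusted p = 0.0677, 0.092 and 0.153) and without overexpression replicate 3 (limma adjusted p = 0.0595, 0.0828 and 0.135). Without overexpression replicate 1 the calls of PDK1 and NDRG1 were lost (limma adjusted p = 0.0605 and 0.103), and without control replicate 1 that of NDRG1 (limma adjusted p = 0.0828).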

How the data were processed

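The deposited table holds FPKM values, 1 column per library, not pooled. The submitters' processing notes name RSEM 1.3.1, Bowtie2, DESeq2 1.4.5 and the build hg38. The sources used here do not give the annotation, the strand or filters. The column names start with NC, read as the vector control, or with 207, read as the ZNF207 construct, and end in a digit read as the replicate. Nothing but these names links columns to samples.

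Because FPKM are no counts, count models were left out. The depth is unknown: among genes under 0.1 FPKM, at most 2.85% shared a ratio between 2 libraries within 0.2%, so no whole-read steps were found. Any 2 libraries shared at most 8 identical values among tested genes.

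Of 60658 rows, 1 was kept per name, that of highest mean. Values were analysed as log2(FPKM + 1), which understates the change of low genes. The whole table was fitted with limma 3.58.1 in R 4.3.3 (two-sided, with a mean-variance trend), and p-values were adjusted by Benjamini-Hochberg over 13185 genes. The procedure was tested on simulated data with independent, normally distributed noise. That setting cannot speak to batches, pairing of libraries or the scaling of FPKM. Members, lists and the rule for named genes (called genes of a list or its 2 smallest p, plus its 2 highest levels) were chosen with earlier results of these data known. KRT8, KRT19, TFF3, PIP, FUNDC2, PHB, PINK1-AS, DDOST, DPYSL2 and MGAT4B were named outside that rule. Some genes of the lists are counted but not reported by name here. Promoter windows came from RefSeq, gene coordinates from GENCODE v29.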

Additional observations from a re-analysis of the deposited data

How the results depend on the processing

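The number of changed genes in the whole table was 28, with 7 higher and 21 lower. It was 64 with a filter at 5 FPKM, 4 without a filter, 17 with median-of-ratios scaling (6 higher, 11 lower), 5 without a variance trend and 7 to 33 when 1 library was left out. Quantile scaling gave 8 higher and 12 lower. The cause of these shifts was not tested, beyond fewer samples when a library is left out. The log2 differences of all 10 members moved by less than the spread between replicates under the 17 alternatives. They ran from -0.59 to -0.42 for BNIP3, -0.46 to -0.37 for BNIP3L, -0.26 to -0.15 for FKBP8, -0.14 to -0.10 for PHB2, -0.16 to 0.00 for FUNDC1, 0.02 to 0.17 for BCL2L13, 0.12 to 0.24 for OPTN and -0.13 to -0.02 for CALCOCO2, and those of PINK1 (-0.05 to 0.14) and SQSTM1 (-0.10 to 0.08) took both signs. So did the median of the 4 PINK1 pathway members (-0.06 to 0.11), which had the sign given in 14 of 17 alternatives.

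How many members were past the threshold did depend on the setting. BNIP3L was past it in 5 of 17 alternatives and BNIP3 in 2. The count of members was 0 with a pseudocount of 0.1, without a filter, with TPM, median-of-ratios or quantile scaling, without a variance trend and without any 1 of the 6 libraries (0 to 0), and 2 with a filter at 5 FPKM. Of the regulators, 1 passed with that filter, HIF1A (adjusted p = 0.0434). Of the hypoxia-induced genes 10 passed with it, 0 without a filter, 1 without a variance trend and 1 to 4 with 1 library left out. The call of NDRG1 was lost under 12 alternatives, that of PDK1 under 5, of P4HA1 under 4 and of LOX under 1, without a filter. The other lists of pathway genes had 0 calls under every alternative, apart from the block described next.

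The replicate numbers were not taken to pair the libraries. Deviations of same-numbered libraries from their group means correlated at 0.136, 0.00881 and 0.175 for numbers 1, 2 and 3. Overexpression replicates 1 and 3 correlated best with the control of their own number, and replicate 2 with control replicate 3 (0.0482). These values do not decide whether the libraries were paired. With the replicate number as a block, 145 genes changed (56 higher, 89 lower), 2 members were past the threshold, BNIP3 and BNIP3L, and 16 hypoxia-induced genes, 1 regulator (HIF1A) and 1 gene of mitochondrial mass (LONP1) passed. Depth is unknown and 3 libraries a group limit the precision, so groups that overlap here are not shown to be alike.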
